A study of Homo sapiens with 19 samples.

Results

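NPTX1, a gene of secreted neuronal proteins, and 8 genes that mark or pattern neuroectoderm (PAX6, SOX1, SOX3, OTX2, LHX2, SIX3, ZIC2 and HES5) were followed through the earliest hours of a differentiation toward brown adipocytes (BAs). The 9 genes were chosen by name, with earlier results of the same arrays known, out of 20503 genes that the arrays could name. All of them had a probe and 8 of them were among the 16694 genes tested for a trend in time. The cells were KhES-3, an established human embryonic stem cell (hESC) line of unmodified genotype as far as the labels say. All 19 samples went through BA induction, which meant suspension culture in a low-attachment dish without serum, in a medium with BMP4, IL-6, VEGFA, IGF-II, KITLG and FLT3LG. By their labels the groups differ only in time, with 19 time points from 3 to 72 h and a single sample for each. No sample before induction or without the medium was analysed here, so changes before 3 h were not measured. The labels describe a mouse feeder layer for the parent culture and the study's methods describe feeder-free culture.

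The neural plate is the part of the ectoderm from which the nervous system forms, and human pluripotent cells tend toward it when NODAL and BMP signals are low. SOX1, SOX3, PAX6, OTX2, LHX2, SIX3 and ZIC2 encode transcription factors of this tissue or of its anterior part, and HES5 encodes a repressor that Notch signalling switches on in neural progenitors. NPTX1, neuronal pentraxin 1, gathers AMPA-type glutamate receptors at synapses in neurons. In human pluripotent cells it has been described as a protein that binds CRIPTO, a coreceptor of NODAL, and favours a neural fate.

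Cy3-labelled RNA was hybridized to Agilent arrays of 62976 spots, with 1 spot per array for each member probe. A signal below is the processed spot intensity scaled to a common 75th percentile of 871, and a log2 difference is taken on the same scale. A spot was called detected where the scanner software called it well above background, which held for 49.6% (14 h) to 64.7% (54 h) of the probes of an array. The arrays lay on 3 slides, with the 6 arrays from 3 to 12 h on slide 1, the 8 from 14 to 42 h on slide 2 and the 5 from 48 to 72 h on slide 3. Slides 1 and 2 shared a scan date and slide 3 had a different one. Time and slide therefore cannot be told apart where a change falls between slides, nor time and scan date between 42 and 48 h. Without replicates the spread between cultures could not be measured. In its place the scatter of a gene is given, the SD of an array around the line through its neighbours in time, which was 0.13 to 0.32 (log2) for the 5 members detected on all arrays. Copies of other probes within an array differed by a median SD of only 0.0515 to 0.070. The 6 hESC markers (POU5F1, NANOG, SOX2, LIN28A, DPPA4 and DNMT3B) were detected on all 19 arrays.

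In brief, NPTX1 and HES5 moved most and at opposite ends of the time course. HES5 lost most of its signal between 3 and 16 h. NPTX1 fell from 3 to 10 h and came up again to 24 h, within slides as well as across a change of slide. It lost most of its signal between 36 and 66 h. SOX3 and OTX2 declined moderately. ZIC2 dipped at 6 to 14 h and again at 48 to 60 h, and came back each time. PAX6 stepped down on slide 1, where its brightest probe stayed detected, and that probe was detected on only 4 later arrays. LHX2 was out of detection from 8 to 48 h and returned from 54 h. SIX3 stayed near background and SOX1 was not detected on any array. Since the 9 genes were chosen with these results known, their courses are a description and carry no test. In bulk RNA such as this, fewer cells that express a gene and less RNA per cell cannot be told apart.

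NPTX1 (NM_002522) was detected on all 19 arrays, with a lowest signal of 87.2 at 72 h, a median of 2164 and a highest of 5788 at 24 h. Within slide 1 the signals were 3348, 2600, 1897, 1758, 1201 and 1647 at 3, 4, 6, 8, 10 and 12 h. An early loss, 1.48 on the log2 scale from 3 to 10 h, thus came first, with a scatter of 0.27. On slide 2 the signals were 2672, 3613, 3736, 5788, 4265, 3921, 4626 and 2164 from 14 to 42 h. The gene thus stood 4.82-fold higher at 24 than at 10 h, a log2 rise of 2.27. Of this, 0.70 lay between 12 and 14 h, where the slide changed. The remainder lay within slides, from 1201 to 1647 on slide 1 and from 2672 to 5788 on slide 2. On slide 3 they were 1152, 392.3, 218, 91.5 and 87.2 from 48 to 72 h. The decline was thus seen at every step from 36 to 66 h, both at the end of slide 2 and inside slide 3, and it flattened between 66 and 72 h.

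From 36 to 72 h the NPTX1 signal dropped 53.0-fold, and 13.2-fold of this fell between 48 and 72 h on slide 3 alone. The slope (± SE) was −0.128 ± 0.0327 log2 per hour on slide 1, −0.00536 ± 0.0161 on slide 2 and −0.159 ± 0.0183 on slide 3. Between the early window (mean of 3, 4 and 6 h) and the late window (mean of 60, 66 and 72 h) the mean signal went from 2547 to 120, a log2 difference of −4.40 or 21.2-fold. By this difference NPTX1 had the lowest rank of 16258 genes measured in both windows, and it had the lowest slope of 14996 genes detected on every array of slide 3. On slide 1 it ranked 201 from the lowest of 15451 genes. Ordered by level, 12 of the 18 pairs of neighbouring time points lay closer together than the scatter, the middle of the range in particular, so the order of the arrays between 16 and 36 h should not be read.

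**Figure D1:**
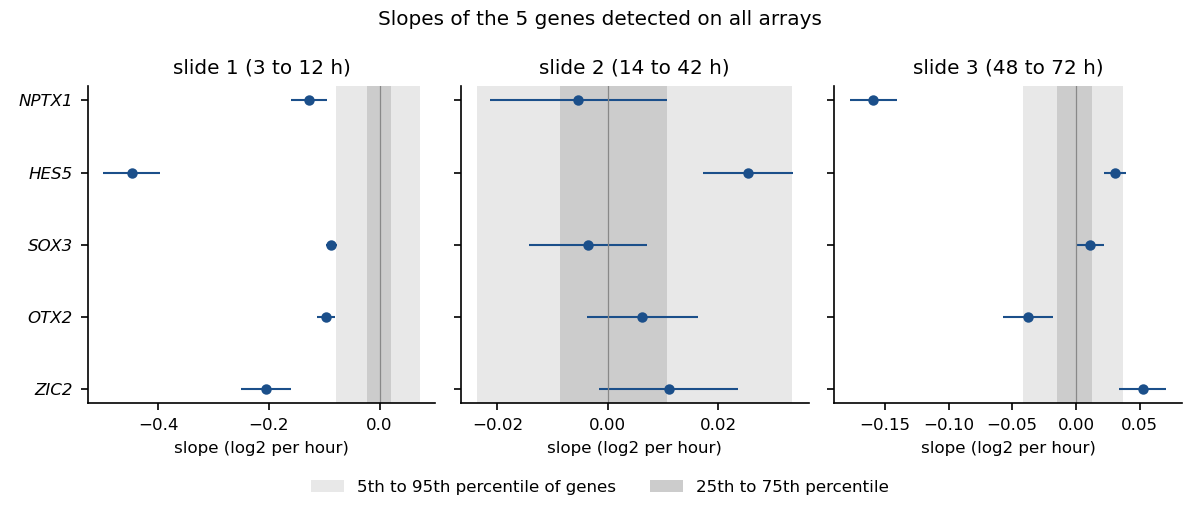
Slope of log2 signal per hour within each slide (points, with bars of 1 SE) for the 5 members detected on all arrays, over the central ranges of all 16694 genes tested (grey bands); the horizontal scales differ between panels. HES5 at −0.448 lies far below the bands on slide 1, NPTX1 at −0.159 far below them on slide 3, and no member lies outside the outer band on slide 2.

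The genes whose course was most like that of NPTX1, by Pearson's r over 19 arrays among 13968 genes detected on all of them, were HAPLN3 (r = 0.97), CYRIB (0.97), KCTD9 (0.95), RTF1 (0.95) and CASP9 (0.95). HAPLN3, a link protein of the hyaluronan matrix, had signals of 15381, 14899, 10469 and 3802 at 3, 24, 48 and 72 h. CASP9 encodes an initiator caspase and RTF1 a factor of transcription elongation, and both were lowest at 72 h (1285 and 1276). Among the 5 most opposite genes were FABP3 (−0.96), TAPBP (−0.95), ADCK1 (−0.95) and EBF4 (−0.95). FABP3, a fatty acid binding protein, had 622, 461 and 1497 at 3, 24 and 72 h, and TAPBP, tapasin of the MHC class I loading complex, 2840, 2759 and 4149. The points share slides and scaling. The list depended on the measure, since 0 of the 5 most like genes were also among the top 5 by Spearman's rho or with slide means taken off, and 1 was with scaling to the array median. With slide means taken off, the r of the 5 genes lay at 0.86, 0.87, 0.82, 0.87 and 0.88. Among the other members detected on all arrays r with NPTX1 was 0.65 for SOX3, 0.46 for OTX2, 0.25 for ZIC2 and −0.02 for HES5.

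Of the other pentraxins, PTX3 also lost signal late and NPTX2 and NPTXR did not. For genes that are not members, a trend was tested with limma as a slope on hours, and a gene rose or fell where its adjusted p was under 0.05. Over the 19 arrays 24.6% of all genes tested rose and 29.8% fell, so a call is common. Of 10 pentraxins and AMPA receptor subunits 6 were tested, of which 2 rose (NPTXR and APCS) and 1 fell (PTX3). NPTX2, the closest relative of NPTX1, had its highest signal at 72 h (2575) and its lowest at 28 h (889), with 1931 in the early and 1925 in the late window, and no trend passed the test (adjusted p = 0.709). NPTXR, the membrane-bound neuronal pentraxin receptor, went from 129 to 181 (adjusted p = 9.96e-04), with a scatter of 0.13. PTX3, a long pentraxin of innate immunity, went from 323 to 101 (adjusted p = 0.0249) and scattered widely (0.57). Its highest signals, 694, 804 and 907 at 24, 28 and 36 h, lay on slide 2 like those of NPTX1, and from 36 to 72 h it dropped 15.1-fold, to a spot not well above background at 72 h (60.1). On slide 3 alone PTX3 fell (slope −0.0904, adjusted p = 0.0493), as did 0.713% of all genes. GRIA1, GRIA2, GRIA3 and GRIA4, the AMPA receptor subunits, were detected on 10, 0, 1 and 19 arrays, and neither GRIA1 nor GRIA4 passed the test (adjusted p = 0.0992 and 0.104). With the slide as a block, where 4.12% of all genes rose and 5.97% fell, the adjusted p was 0.499 for NPTXR and 0.683 for PTX3, and APCS, serum amyloid P component, kept its call as rising (0.0435; 55.4 and 127 in the windows).

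**Figure D2:**
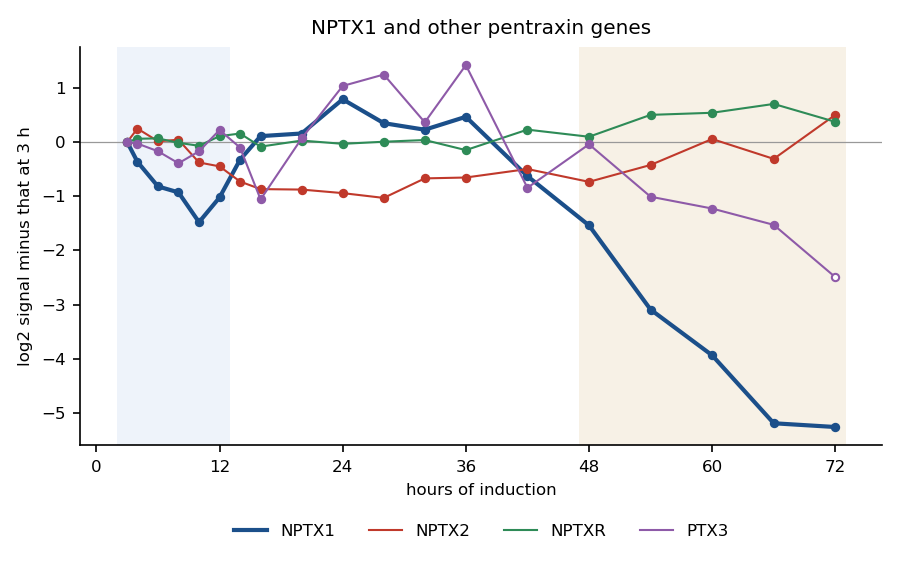
Log2 signal minus that at 3 h for NPTX1, NPTX2, NPTXR and PTX3 against hours of induction, 1 array per time point, with open points not well above background and bands for the slides. NPTX1 ends at −5.26, PTX3 also ends below 0, and NPTX2 and NPTXR end above 0.

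CRIPTO, the NODAL coreceptor that NPTX1 has been described to bind (older symbol TDGF1), was detected on all arrays with a scatter of 0.06. Its signals were 41991, 29910, 23735 and 24074 at 3, 12, 24 and 72 h. The loss of CRIPTO thus lay in the first day, over the hours of the early loss of NPTX1 and before the late loss of NPTX1. CRIPTO fell over the 19 arrays (adjusted p = 0.0119), a call that was lost with the slide as a block (0.663).

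HES5 (NM_001010926) showed the steepest early decline among the members. The signals on slide 1 were 3024, 2154, 561, 488, 254 and 189 at 3, 4, 6, 8, 10 and 12 h. The largest step lay between 4 and 6 h. On slide 2 the signals went on to 88.9 at 14 h and 63.4 at 16 h, the lowest of the course, and then ranged from 79.2 to 128 up to 42 h. On slide 3 they were 125, 122, 182, 177 and 197, a small return that kept HES5 far below its start and whose slope on slide 3, 0.0307, was −0.0205 with scaling to spike-in RNA. From 3 to 10 h the log2 difference was −3.57, against a scatter of 0.29, and it was −3.70 with scaling to the array median and −3.71 with scaling to spike-in RNA. The slope on slide 1 was −0.448 ± 0.0515 log2 per hour, rank 3 from the lowest of 15451 genes. The windows gave 1540 and 185, a log2 difference of −3.06 (8.34-fold), rank 4 from the lowest of 16258. The median over 19 arrays was 128.

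Notch switches on its targets through RBPJ, its DNA-binding partner. Because HES5 and HEYL, another Notch target, lost signal over the same hours, the 250 bases before their starts are shown (RefSeq, GRCh38.p14), with the RBPJ core TGGGAA and its reverse complement TTCCCA in capitals. The HES5 stretch is chr1:2530264-2530513 on the minus strand and the HEYL stretch chr1:39639644-39639893, also on the minus strand.
HES5: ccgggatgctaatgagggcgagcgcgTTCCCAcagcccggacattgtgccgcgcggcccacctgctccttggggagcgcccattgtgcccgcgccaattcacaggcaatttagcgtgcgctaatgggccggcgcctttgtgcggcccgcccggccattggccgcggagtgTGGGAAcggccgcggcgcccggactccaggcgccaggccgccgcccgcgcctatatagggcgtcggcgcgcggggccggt
HEYL: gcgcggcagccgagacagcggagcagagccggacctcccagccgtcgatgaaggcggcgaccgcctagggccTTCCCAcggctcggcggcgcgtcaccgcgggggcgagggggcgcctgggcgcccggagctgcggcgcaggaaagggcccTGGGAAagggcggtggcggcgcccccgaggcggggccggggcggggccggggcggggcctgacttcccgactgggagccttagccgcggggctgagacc
Each stretch held 2 matches, 1 on each strand, which began 224 and 80 bases before the start in HES5 and 178 and 99 bases in HEYL. Of all 35116 promoters of the same length 20.8% held at least 1 match, so a match alone is common. No match was found in this window of NRARP, HES2 or HES6, and HES3 had 1. HEY1, HES1 and the remaining Notch effectors named below were not looked up. Of the 9 members 7 had a promoter in the table, and HES5 was the only 1 of these with a match. A match is a description of letters and not evidence of binding.

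Of 10 other Notch effectors 9 were tested, and on slide 1, where 1.84% of all genes rose and 3.29% fell, 0 rose and 6 fell: HES2, HES3, HES6, HEY1, HEYL and NRARP. NRARP, a feedback inhibitor of Notch, had 16462, 5723 and 4467 at 3, 12 and 14 h (slope −0.179, adjusted p = 0.0222). HEYL, a repressor related to HES5, went from 532 at 3 h to 158 at 12 h (−0.224, adjusted p = 0.0331), and HEY1 from 693 to 156 (−0.278, adjusted p = 0.0291). The median slope of the 9 genes was −0.179 log2 per hour beside −0.000992 over all genes. Over the whole course NRARP was the nearest to HES5 among the genes paired with it, with r = 0.97 and 0.95 with slide means taken off, and HEYL had 0.93 and 0.78.

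HES1, a Notch target in many tissues, went from 491 at 3 h to 82.3 and 81.6 at 8 and 10 h, stood at 141 at 12 h and was lowest at 42 h (77.4), and its slope on slide 1 did not pass the test (adjusted p = 0.238). HES3 later rose above its signal at 3 h (223), whereas HES5 stayed far below its own. The lowest detected value of HES3 came at 10 h (51.3). HES3 was not well above background at 14 and 16 h, and then came up to 255 at 54 h and 1071 at 60 h. Over the 19 arrays HES3 and HEY2 rose (adjusted p = 0.00124 and 0.00591), while HES6, HEY1 and HEYL fell, beside 24.6% rising and 29.8% falling over all genes. With the slide as a block limma called 0 of the 9, and 2 had a positive slope at an unadjusted p under 0.05.

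**Figure D3:**
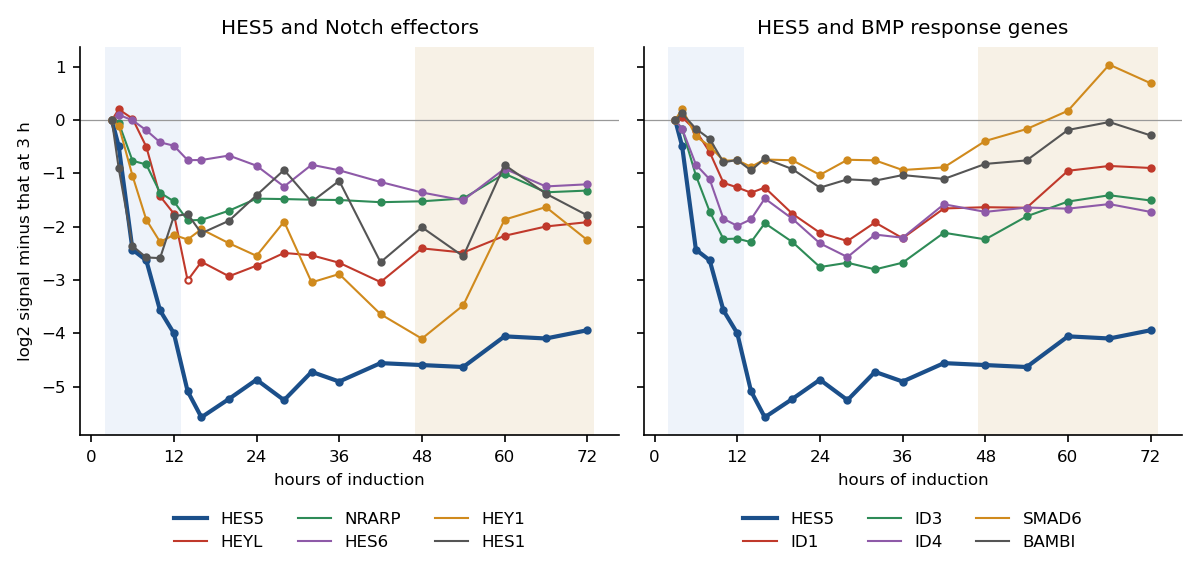
Log2 signal minus that at 3 h against hours of induction for HES5 (thick blue line) beside 5 Notch effectors (left) and 5 BMP response genes (right), 1 array per time point, with open points not well above background and bands for the slides. Every gene drawn lies below 0 at 10 h, HES5 the lowest at −3.57, and several of the others come back by 60 h.

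BMP response genes were examined beside HES5, because the medium held BMP4. ID1, ID2, ID3 and ID4 encode dominant-negative helix-loop-helix proteins, SMAD6 and SMAD7 inhibitory SMADs and BAMBI a decoy receptor. Together with CRIPTO they made a list of 8 genes, all tested. On slide 1, where 3.29% of all genes fell, 6 of them fell (ID1, ID3, ID4, SMAD6, SMAD7 and BAMBI). None of the 8 rose, also at an unadjusted p. ID3 went from 22750 at 3 h to 4842 at 10 h (slope −0.275, adjusted p = 0.0222), and ID1 from 223325 to 98786 (−0.162, adjusted p = 0.0222). The 8 slopes were all negative, with a median of −0.122. ID2 had 19642 at 3 h and 11170 at 12 h and did not pass (adjusted p = 0.0679). On slide 3 limma called 0 of the 8, with 7 positive slopes of which 4 had an unadjusted p under 0.05, and SMAD6 had its highest signal at 66 h (1453). That late direction depended on the scaling, since with spike-in RNA 7 of the 8 slopes on slide 3 were negative and CRIPTO and ID4 fell, where 0.353% of all genes rose and 69.9% fell.

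These calls on slide 1 depended on single arrays. Without the 3, 4, 10 or 12 h array limma called 0 of 16694 genes, although 1721 to 2066 genes still had a negative slope and an unadjusted p under 0.05. Among those were 6, 6, 6 and 7 of the 9 Notch effectors and all 8 genes of the BMP list each time. Without the 6 h array 2 Notch effectors and 3 BMP genes were called, and without the 8 h array 3 and 3. With scaling to spike-in RNA, where 0.311% of all genes rose and 0.833% fell on slide 1, 5 of the Notch effectors (not HES6) and 4 of the BMP list (not SMAD6 or BAMBI) fell.

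SOX3 (NM_005634), a SOXB1 factor of pluripotent and neural progenitor cells, was lowest at 54 h (2770), had a median of 6002 and was highest at 3 h (10825). On slide 1 the signals stepped down at every time point, through 10095, 9196, 8593, 6844 and 6317 from 4 to 12 h. The slope was −0.0873 ± 0.0103 log2 per hour, with a scatter of 0.13, the smallest among the members. On slide 2 SOX3 came up from 4984 at 14 h to 7999 at 28 h and went back to 4217 at 42 h. The windows gave 10016 and 3500, a log2 difference of −1.52 (2.86-fold), rank 207 from the lowest of 16258 genes. SOX2, the other SOXB1 gene measured on all arrays, had 24013 and 23737 in the windows and no trend that passed (adjusted p = 0.517).

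SOX1, the SOXB1 factor most specific to neuroectoderm, was not well above background on any of the 19 arrays (NM_005986, 1 probe). It is given no level. Neuroectoderm therefore names the known role of the 9 genes here and not a cell type found in the samples.

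OTX2 (NM_021728), a homeodomain factor of the epiblast and the forebrain, was highest at 3 h (546), had a median of 318 and was lowest at 72 h (155). On slide 1 the signals were 546, 430, 437, 318, 319 and 285, with a slope of −0.0974 ± 0.0166. After that it wandered between 229 and 402 on slide 2 without a direction (slope 0.00623 ± 0.0101). On slide 3 it had 367, 285, 188, 340 and 155, so that the 66 h array lay above both of its neighbours. The windows gave 468 and 215 and a log2 difference of −1.13 (2.18-fold), with a scatter of 0.32.

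ZIC2 (NM_007129), a zinc finger factor of the neural plate, dipped and came back early, and did so again on slide 3. Its signals were 488 and 480 at 3 and 4 h, 193, 176, 143 and 156 from 6 to 12 h, and 204 at 14 h on the next slide. From 16 to 42 h they lay between 332 and 466. On slide 3 the first 3 arrays gave 193, 171 and 171, and the last 2 gave 415 and 369. The early step from 3 to 10 h was −1.77 on the log2 scale, several times its scatter of 0.29, and its slope on slide 1 (−0.206 ± 0.0452) ranked 46 from the lowest of 15451 genes. Between the windows the difference was only −0.26, and without the 60 h array it was 0.14, so late and early levels cannot be ordered.

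ZIC5 lies next to ZIC2 on chromosome 13, on the opposite strand, and took a similar early course. At 42 and 48 h, between which ZIC2 dropped to 193, ZIC5 had 1153 and 1088. It had 1691, 473, 462, 908 and 1413 at 3, 10, 14, 16 and 72 h, and it fell on slide 1 (slope −0.217, adjusted p = 0.0264). The correlation with ZIC2 over the 19 arrays was 0.70, or 0.87 with slide means taken off, over points that share slides and scaling.

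PAX6 (NM_000280), a paired homeodomain factor of the eye and forebrain, had 3 probes that were detected on 10, 7 and 0 arrays. The brightest had 188, 194, 112, 106, 62.4 and 97.4 on slide 1, where it was detected on all 6 arrays. It was detected on 4 arrays of slide 2, at 20, 28, 32 and 42 h (70.0, 34.0, 193 and 52.5), and on no array of slide 3. The second probe had 75.7, 54.4, 46.5, 43.3, 40.3 and 42.5 on slide 1 and was then detected only at 32 h (33.4). Both probes thus stepped down early and both stood up at 32 h, an isolated point between lower neighbours. Since no late array was detected, the late signal of both probes is only bounded. Undetected spots were set no lower than the lowest detected signal of their array. The brightest probe then lay 4.83-fold below the early window, with measured means of 160 and 11.8. By the same rule the second probe lay 1.74-fold below. Some undetected spots of other genes lay above that lowest signal, so neither fold is a strict minimum. The scatter of the brightest probe, 1.16, was the largest among the members.

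LHX2 (NM_004789), a LIM homeodomain factor of the forebrain and optic vesicle, was detected at 3, 4 and 6 h (65.1, 51.0 and 33.3), on no array from 8 to 48 h, and again from 54 h (31.7, 60.6, 58.3 and 86.8). The lowest detected signals of an array were near 25.6 (median, 73.5 at 14 h), so the middle of the course is at background. Its windows gave 48.0 and 67.5, a log2 difference of 0.49 that was −0.15 with scaling to spike-in RNA. LHX2 thus went out of detection and returned, with a late level whose direction against the early level depends on the scaling.

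SIX3 (NM_005413), a homeodomain repressor of the anterior neural plate, was detected on 13 arrays with signals of 25.1 (12 h) to 52.7 (60 h). All its values lay near background, and the difference between windows (28.1 and 44.5, log2 0.66) was 0.02 with scaling to spike-in RNA.

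Over the steps from 3 to 10 h, 7 of the 8 members with a detected signal there lost signal. Those 7 directions were the same with scaling to the array median or to spike-in RNA. SIX3, near background, gained 0.32, but its difference from 3 to 12 h was −0.29. The members were chosen with these results known. By another measure, the slope on slide 1 from 3 to 12 h, 8573 of all 16694 genes tested were negative. The share of all genes lower at 10 than at 3 h was not counted. LHX2 was no longer detected at 10 h. The median over all probes tested moved by 0.03 from 3 to 10 h, −0.10 with the median and −0.11 with spike-in scaling. From early to late it moved by 0.13, −0.24 and −0.52 under these 3 scalings, and late differences should be read against that shift.

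A wider list held 24 neural plate transcription factors that are not members, of which 14 were tested. Over the 19 arrays 1 rose (SALL3) and 2 fell (HESX1 and POU3F2), beside 24.6% rising and 29.8% falling over all genes. The median difference between windows was −0.02, beside −0.05 over all genes. Within slide 1, where 1.84% of all genes rose and 3.29% fell, 0 rose and 4 fell (ZIC5, HESX1, POU3F2 and GBX2). There 11 of the 14 slopes were negative, with a median of −0.0857. With scaling to spike-in RNA, where 0.833% of all genes fell, ZIC5 alone of the 14 fell on slide 1, and 11 slopes were again negative. HESX1, a repressor of the anterior neural plate, went from 1681 at 3 h to 689 at 12 h (slide 1 adjusted p = 0.0289) and 396 at 72 h (19 arrays, adjusted p = 0.00202). GBX2, which sets the border of midbrain and hindbrain, went from 151 to 37.5 between 3 and 12 h (adjusted p = 0.0311). ZIC1, SIX6, FEZF1, LHX5 and MEIS2 were not detected on any array. Without the 3, 4, 8, 10 or 12 h array 0 of the 14 were called on slide 1 by limma, with 6 to 9 at an unadjusted p under 0.05 and a negative slope, and without the 6 h array 3 were called.

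SOX21 and SOX11 took another course, with lower signals at the end than at 42 h. SOX21, a SOXB2 factor that opposes SOXB1 proteins, had 142, 594, 1022 and 210 at 6, 16, 42 and 72 h. It was the only gene of the list that fell on slide 3 (adjusted p = 0.0493), where 0.341% of all genes rose and 0.713% fell. SOX11, a SOXC factor of immature neurons, rose on slide 2 from 5271 at 14 h to 7790 at 42 h (adjusted p = 0.0200), where 4.13% of all genes rose and 3.2% fell, and had 3518 at 66 h. With scaling to spike-in RNA the call of SOX11 on slide 2 was lost, as were those of nearly all genes (0.012% rose and 0.0359% fell). On slide 3 with that scaling 5 of the 14 fell (OTX1, HESX1, SOX11, SOX21 and POU3F2), where 69.9% of all genes fell and 0.353% rose. With slide means taken off, r with NPTX1 was 0.63 for SOX21 and 0.64 for SOX11, and without that 0.33 and 0.39.

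**Figure D4:**
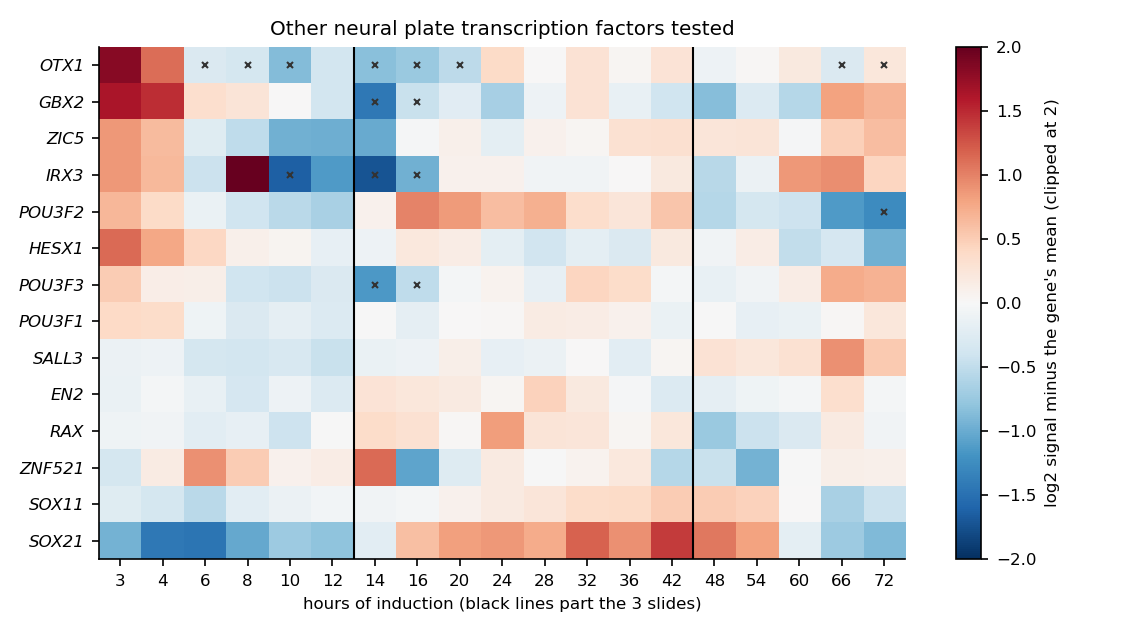
Log2 signal minus each gene's own mean over the 19 arrays (red above, blue below, clipped at 2) for the 14 other neural plate transcription factors tested, ordered by their slope on slide 1; crosses mark spots not well above background and black lines part the slides. The upper rows start red at 3 h and turn blue by 10 to 14 h, and SOX21 at the bottom is red from 16 to 54 h; IRX3 is highest on the 8 h array.

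Of 17 genes of neural progenitors and neurons 14 were tested. Over 19 arrays 6 fell (NES, FABP7, NCAM1, CDH2, TUBB3 and MAP2) and 4 rose (MSI1, STMN2, ELAVL4 and INA), beside 29.8% falling and 24.6% rising over all genes, so the counts do not set the list apart. With the slide as a block the calls of FABP7 and INA were kept and the other 8 were lost. FABP7, a fatty acid binding protein of radial glia, had 552, 472, 256 and 115 at 3, 12, 32 and 72 h. It fell over the 19 arrays (adjusted p = 3.44e-09), with the slide as a block (0.00415) and on slide 3 alone (0.0493), and its r with NPTX1 was 0.80. INA, an intermediate filament protein of neurons, rose from 1244 at 14 h to 3190 at 72 h and kept its call with the block (0.00159). NEUROG1, NEUROG2 and NEUROD1, proneural factors, were not detected on any array.

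Ectoderm outside the neural plate was represented by 19 genes of epidermis and neural crest, of which 15 were tested. On slide 1, where 1.84% of all genes rose and 3.29% fell, 5 fell (GATA2, GATA3, DLX5, FOXD3 and SOX9) and 0 rose. With scaling to spike-in RNA 3 fell there (GATA2, FOXD3 and SOX9), beside 0.833% of all genes. Over 19 arrays KRT7, KRT18, FOXD3 and SOX10 rose and TFAP2C fell, beside 24.6% rising and 29.8% falling over all genes. FOXD3, a factor of both pluripotent cells and neural crest, resembled ZIC2 in its early dip, with 3306, 1044, 4173 and 6170 at 3, 12, 16 and 42 h. GATA2, an early BMP target in non-neural ectoderm, went from 352 at 3 h to 60.2 at 12 h (adjusted p = 0.0222) and had 80.0 at 72 h. Without the 3, 4, 10 or 12 h array 0 of the 15 were called on slide 1, with 7 or 8 at an unadjusted p under 0.05 and a negative slope. With the slide as a block 0 of these 15 genes and 0 of the 14 neural plate factors were called by limma, against 1 and 3 at an unadjusted p under 0.05.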

How the data were processed

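Single-colour Agilent SurePrint G3 arrays of 19 samples were analysed. Per the labels, the authors extracted signals with Agilent Feature Extraction 10.10.1.1, and the deposited intensity is the processed signal of a spot, background-subtracted within the array and not scaled between arrays. The deposited flags are a score of 0 or 1 for a spot well above background or an outlier, and outlier spots (0.632%) were left out; no spot was saturated. The authors also deposited a table of these intensities times 1 factor per array (0.905 to 1.38), blank where a spot was not well above background. The array design uses genome build hg19, whose coordinates are not printed; 28174 of 50683 probes were named by RefSeq accession (GRCh38.p14), 1 older symbol was updated (CRIPTO), and the array output gave no probe sequences used here.

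Log2 intensity minus the array's 75th percentile (655 to 1003) was used, with the probe of highest mean per gene. Slopes on hours were fitted with limma 3.58.1 (R 4.3.3; lmFit, eBayes, Benjamini-Hochberg, adjusted p under 0.05) over the 32113 probes that 5 or more arrays called well above background; the fit was tested on simulated data. A fold is only an approximate bound where a whole window lay at background, with its spots set no lower than the array's lowest detected signal. Python 3.11.15, numpy 2.4.6 and pandas 2.3.3 made the tables. Genes named are the 9 members, the genes of 9 lists, and the 5 most like and 5 most opposite to NPTX1, not all of which are reported here. The members and lists were chosen with earlier results of these data known. The alternatives were scaling to the array median or to 7 of 10 spike-in levels, normexp (offset 50, on median pixel intensity), the deposited table, gene means over probes, other background filters, log2 hours, a cubic, the slide as a block, 3 to 54 h, other windows and each array left out. Fits within a slide, and each array of slide 1 left out, were added after seeing the data. P-values measure only the scatter of these arrays around a line.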

Additional observations from a re-analysis of the deposited data

How the results depend on the processing

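No paired analysis was possible because no time point has a second array. Scaling to the array median, scaling to spike-in RNA and normexp correction with quantile normalization gave late minus early log2 differences of −4.77, −5.05 and −3.64 for NPTX1, −1.89, −2.16 and −1.26 for SOX3, and −3.43, −3.70 and −2.70 for HES5. The median and spike-in scalings gave −1.50 and −1.77 for OTX2 and −0.63 and −0.91 for ZIC2. Taking 72 h minus 3 h gave −5.26 for NPTX1, −1.82 for OTX2 and −3.94 for HES5, and the mean of slide 3 minus that of slide 1 gave −3.04 for NPTX1, −1.34 for SOX3, −0.58 for OTX2, −2.08 for HES5 and, reversed, 0.0405 for ZIC2. LHX2 reversed to −0.15 with spike-in scaling and to −0.0014 with normexp. With 1 array left out at a time the range was −4.83 to −4.17 for NPTX1, −3.79 to −2.57 for HES5, −1.61 to −1.38 for SOX3, −1.46 to −0.89 for OTX2 and −0.70 to 0.14 for ZIC2, which turned without the 60 h array. Under the other alternatives the values of these 5 genes moved by less than their scatter.

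The number of genes that rose was 4101 over the 19 arrays, 1771 with the array median, 600 with spike-in scaling, 688 with the slide as a block, and 307, 690 and 57 on slides 1, 2 and 3 alone. The number that fell was 4979, then 7426 with the array median, 7436 with spike-in scaling, 996 with the block and 550, 535 and 119 on the slides. With spike-in scaling 52 rose and 139 fell on slide 1, 2 and 6 on slide 2, and 59 and 11672 on slide 3. With the array median 171 and 628, 497 and 675, and 109 and 740 did so. Over the 19 arrays, leaving out 1 at a time gave 3850 to 4163 rising and 4702 to 5009 falling. Of the neural plate factors, 1 rose and 2 fell. Those that rose were 0 with spike-in scaling, 2 on log2 hours, 3 with a cubic in hours, 0 with the block, 3 up to 54 h, 0, 1 and 0 on the slides, and 1 to 3 with 1 array left out (3 without the 3 or 4 h array, 2 without the 6, 48 or 54 h array). Those that fell were 1 with the deposited table, 1 without the background filter, 1 with detection on all 19 arrays, 1 on log2 hours, 4 with the cubic, 0 with the block, 0 up to 54 h, 4, 0 and 1 on the slides, and 1 to 2 with 1 array left out (1 without the 3, 66 or 72 h array). Of the 5 genes most like NPTX1, 0 remained by Spearman's rho, 0 with slide means taken off and 1 with the array median, and of the 5 most opposite 0, 0 and 0. The causes were not tested. With 1 array per time point and no replicates, differences near the scatter of a gene and signals near background cannot be read, and 14 h had the fewest detected probes (49.6%).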

Other observations

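The hESC markers were detected on every array. Between the windows POU5F1, the core pluripotency factor, went from 349262 to 279829 and LIN28A from 22593 to 18461. DNMT3B, a de novo DNA methyltransferase, went from 181447 to 101131. These 3 of 6 genes fell over the 19 arrays (adjusted p = 2.59e-04, 0.0142 and 1.78e-06), beside 29.8% falling over all genes. With the slide as a block DNMT3B alone kept its call (0.0242). NANOG, SOX2 and DPPA4 did not pass (adjusted p = 0.253, 0.517 and 0.614).

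Of 10 mesoderm and endoderm markers, all tested, MESP1 and TBX6 rose over the 19 arrays (adjusted p = 2.23e-05 and 0.00104) and 0 fell, beside 24.6% rising and 29.8% falling over all genes. Both calls were lost with the slide as a block (0.0712 and 0.625). MESP1, an early mesoderm factor, had 112, 245, 637 and 299.8 at 3, 60, 66 and 72 h. The summed signal of the 10 markers was 1653 to 2256 on slide 1, 1323 to 2291 on slide 2 and 1624 to 3736 on slide 3, and its highest value came from the 66 h array. On that array TBXT had 295 between neighbours of 33.7 and 94.7, EOMES 372 between 94.0 and 117, and GATA6 504 between 182 and 222. The same array was high for ZIC2 (415 after 171 at 60 h) and OTX2 (340 after 188). Its part in those values was not tested.

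A list of 7 fibroblast markers was made because of the mouse feeder layer that the labels name. COL1A1, COL1A2 and THY1 were detected on all 19 arrays, DCN on 9, COL3A1 and LUM on 1 and POSTN on 2. Their summed signal was 30548 to 42502 on slide 1, 26688 to 34537 on slide 2 and 26387 to 47126 on slide 3. In the early window THY1 gave the largest part (28028, beside 8145 for COL1A1 and 4717 for COL1A2). The arrays carry human probes, so the sum cannot be read as a measure of mouse feeder cells. The part of such cells in the courses of the members was not tested.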
